A study of Mus musculus with 6 samples.

Results

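Chaperones and the unfolded protein response were followed in 6 samples of mouse dendritic cells through 10 listed genes. The cytosolic members were Hspa8, Hspa1b, Hsp90aa1, Hsp90ab1 and Dnajb1, and those of the endoplasmic reticulum (ER) were Hspa5, Hsp90b1, Calr and Pdia3, with the transcription factor Xbp1. Probe sets were taken when the array's annotation gave them 1 gene symbol and that symbol was a listed member. This found 28 of 45101 probe sets, for 9 of the 10 genes out of 18193 genes named in this way. Hsp90ab1 was not the sole symbol of any probe set in the annotation used and is not analysed here.

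Bone marrow cells of C57BL/6 mice had been grown for 6 days with GM-CSF at 10 ng/ml, a growth factor that drives marrow cells towards dendritic cells. Cells positive for CD11c and MHC class II were sorted, from shared cultures, into Ly6G+ dendritic cells (Ly6G+ DC) and Ly6G- dendritic cells (Ly6G- DC), where Ly6G is a surface protein known from neutrophils. Each group had 3 samples, each on 1 Affymetrix Mouse Genome 430 2.0 array made from 200 ng of total RNA, and the comparison asks how the Ly6G+ cells differ from the Ly6G- cells. Nothing in the labels ties a sample to its own animal or culture, so p-values reflect how these arrays differ among themselves, and that spread may be technical. The Ly6g gene itself is not named in the annotation used.

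Chaperones bind unfolded stretches of other proteins and release them in cycles driven by ATP. In the cytosol, Hspa8 is the constitutive member of its family, Hspa1b the inducible one, Dnajb1 a J-domain partner that hands them their substrates, and Hsp90aa1 a chaperone of kinases and receptors. In the ER, Hspa5 (BiP) holds the stress sensors inactive until unfolded proteins draw it away. One of these sensors, encoded by Ern1, then splices the Xbp1 mRNA, and the resulting factor switches on ER chaperone genes. Xbp1 is also known for its part in the development and survival of dendritic cells, and calreticulin (Calr) and Pdia3 (ERp57) help to load peptides onto MHC class I.

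The ER stress response element is held by the promoters of 3 ER chaperone genes among the members, and the stretches that hold it show the sequence by which the unfolded protein response is known to reach them. The element was searched as CCAAT and CCACG with any 9 bases between them, on both strands, in RefSeq promoter windows of build GRCm38.p6, from 250 bases before to 50 after each start site, and is in capitals. Positions count back from the start site, and all bases shown lie before it.
Hspa5, chr2:34771984-34772083, plus strand, element at bases 65 to 47 before the start: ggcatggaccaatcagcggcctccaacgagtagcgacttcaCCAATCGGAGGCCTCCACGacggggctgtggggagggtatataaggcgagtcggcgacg
Hsp90b1, chr10:86705525-86705664, minus strand, elements at bases 212 to 194 and 107 to 89 before the start: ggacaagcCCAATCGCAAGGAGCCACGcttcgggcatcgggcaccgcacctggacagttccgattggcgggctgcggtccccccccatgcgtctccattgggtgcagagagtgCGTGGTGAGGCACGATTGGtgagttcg
Calr, chr8:84847035-84847134, minus strand, element at bases 162 to 144 before the start: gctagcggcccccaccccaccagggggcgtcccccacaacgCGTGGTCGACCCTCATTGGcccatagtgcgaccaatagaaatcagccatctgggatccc
The element of Calr and the nearer one of Hsp90b1 read on the strand opposite to the gene. Of the 10 members 7 had a promoter window, 3 of these held the element, and 39 of all 32851 windows did (0.119%). Windows of Pdia3, Xbp1, Dnajb1 and Hspa1b held no match to these letters. The heat shock element, by which heat shock factors are known to bind cytosolic chaperone genes, was searched on both strands as the units GAA, TTC and GAA with any 2 bases between neighbours, which 0.603% of windows held, and as GAA and TTC alone, part of the longer form, which 7.86% held. The longer form matched 0 of the 7 member genes and the shorter form 1, Hspa1b.

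Arrays differed in their hybridization controls, in RNA quality and in markers of other cell types. The hybridization controls, transcripts added just before hybridization, gave geometric mean signals of 1529 to 2039 on Ly6G+ DC 1, Ly6G+ DC 3 and Ly6G- DC 1 (the low side) and of 6688 to 12842 on Ly6G+ DC 2, Ly6G- DC 2 and Ly6G- DC 3 (the high side). For Actb, the 3' probe set over the 5' probe set, a sign of RNA quality and labelling, lay between 1.17 and 1.49 for the low side and between 3.98 and 6.85 for the high side. Its log2 mean was 0.94 ± 0.93 for Ly6G+ DC against 1.90 ± 1.46 for Ly6G- DC, and that of Gapdh was 0.13 ± 0.60 against 1.05 ± 1.17 (SD, n = 3). Exact permutation tests, two-sided, gave p = 0.4 for both ratios, and 3 arrays against 3 cannot go below 0.1. Summed signals of 9 neutrophil markers were 79677 to 100799 in Ly6G+ DC and 10810 to 25905 in Ly6G- DC, and those of 3 monocyte markers 2937 to 4394 and 843 to 2416. Mmp8, at 8578 to 13809 in Ly6G- DC, made up most of each Ly6G- sum of the neutrophil markers. Its log2 fold change was 0.595 ± 0.351 (SE), and those of the other neutrophil markers were 2.45 to 4.48. Sums of 10 dendritic cell and sort genes, Itgax and H2-Ab1 among them, were 68197 to 138368 in Ly6G+ DC and 108305 to 249271 in Ly6G- DC, and 9 of the 10 had negative log2 fold changes. Bright genes in these sums, H2-Aa and Cd74, also differed by array side. H2-Aa lay at 62040 to 120546 on the high and 14475 to 22344 on the low side. Cd74 lay at 35796 to 56126 and 11149 to 24945. With the side as a block H2-Aa moved from -1.30 ± 0.74 to -0.61 ± 0.25 (SE), and the median of the 10 from -0.69 to -0.62. Within both sides every Ly6G+ array was lower for 9 of the 10. Sums of 8 macrophage markers overlapped (32434 to 44448 and 29608 to 56291), 1 of 6 T and NK cell markers and 0 of 5 erythroid genes had a probe set past the filter on low signals, and no marker was at 0. The part of these markers, of RNA quality and of the array side in the results on chaperones was not tested beyond the values given with each result. In sorted bulk samples, fewer cells of a type and less RNA per cell cannot be told apart.

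None of the chaperone genes passed the test between the sorted groups. Of the 28 probe sets 27 passed the filter, which kept a probe set when its signal lay above the 40th percentile of all probe sets on at least 3 of the 6 arrays. The dim probe set of Hsp90aa1, 1441827_x_at, with signals of 4.4 to 119, did not. With limma's test of the group alone, 0 of 27 were called at an adjusted p under 0.05, with a smallest adjusted p of 0.836, where 0% of the 28254 kept probe sets were called. At an unadjusted p under 0.05, 1 member probe set was higher in Ly6G+ DC and 0 were lower, against 2.75% and 2.87% of all kept probe sets. Groups did not overlap for 0 of 27 in either direction, against 4.49% higher and 7.24% lower in Ly6G+ DC among all. Log2 fold changes, as Ly6G+ over Ly6G- on the log2(signal + 16) scale, were positive for 13 member probe sets (45% of all) and negative for 14 (55% of all), with a median of -0.07 against -0.06 over all. Scaling to a common median gave 18 positive and 9 negative, where 68.2% of all were positive.

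Hspa5, the chief chaperone of the ER lumen, had the largest log2 fold change among the members, but its probe sets split in sign. Signals of 1427464_s_at were 1670, 1286 and 3464 on Ly6G+ DC 1, 2 and 3 and 1500, 802 and 774 on Ly6G- DC 1, 2 and 3, with a log2 fold change of 0.99 ± 0.42 (SE, limma, unadjusted p = 0.0400, adjusted p = 0.836). Signals of the brightest, 1416064_a_at, were 5350, 3997 and 5648 for Ly6G+ DC and 4637, 2556 and 2107 for Ly6G- DC, with 0.75 ± 0.36 (SE). In both, Ly6G- DC 1 lay above Ly6G+ DC 2, so the groups overlapped, and within each side every Ly6G+ array was above every Ly6G- array. For 1416064_a_at the log2 fold change was 0.25 within the low side and 0.78 within the high side, and for 1427464_s_at it was 0.68 and 0.70. The other probe set, 1447824_x_at, ran the other way, with signals of 1342, 2057 and 984 for Ly6G+ DC and 1619, 2039 and 2623 for Ly6G- DC, and a log2 fold change of -0.55 ± 0.35 (SE). In Affymetrix naming, _a_at marks probes shared by transcripts of one gene, _s_at probes shared by transcripts of different genes, and _x_at probes that can bind unrelated transcripts.

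Hsp90b1 (GRP94), the ER relative of the cytosolic Hsp90 chaperones, is known for folding Toll-like receptors and integrins. In its brighter probe set, too, every Ly6G+ array was above every Ly6G- array within each side. Its difference of the high over the low side was 0.377 ± 0.265 (SE), where Hspa5 1416064_a_at and 1427464_s_at were lower on the high side. Signals of 1415889_a_at were 3109, 5325 and 5082 for Ly6G+ DC and 2545, 3750 and 2749 for Ly6G- DC. The groups overlapped through Ly6G+ DC 1 and Ly6G- DC 2, which lie on different sides. Its log2 fold change was 0.56 ± 0.34 (SE), and 0.64 within the low and 0.73 within the high side. With the side as a block it was 0.68 ± 0.26 (SE, limma, unadjusted p = 0.0264, adjusted p = 0.747). The other probe set, 1438040_a_at, had signals of 1667, 2803 and 1206 for Ly6G+ DC and 1394, 1913 and 1934 for Ly6G- DC and a log2 fold change of 0.04 ± 0.36 (SE), which turned to -0.01 with quantile normalization.

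Calr, the lectin chaperone of the ER that also acts in MHC class I loading, had 3 bright probe sets with negative log2 fold changes. Signals of 1417606_a_at were 4804, 4959 and 2989 for Ly6G+ DC and 4588, 5312 and 5320 for Ly6G- DC. The low value was that of Ly6G+ DC 3, which was the lowest array in each of the 3 probe sets. Log2 fold changes were -0.29 ± 0.32, -0.35 ± 0.35 for 1456170_x_at and -0.28 ± 0.38 for 1433806_x_at (SE). Without Ly6G+ DC 3, a low-side array, they were -0.05, -0.07 and 0.07. With the side as a block they were -0.19 ± 0.25, -0.16 ± 0.25 and -0.04 ± 0.28 (SE). All 3 probe sets were higher on every high-side array than on any low-side array. What the array and the side each add to the negative values was not tested. When arrays were scaled to a common median, 1417606_a_at and 1433806_x_at became 0.04 and 0.05. That setting moved the median over all kept probe sets from -0.06 to 0.23.

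Pdia3, a disulfide isomerase that works with Calr on glycoproteins, was set apart by the array side, and its groups overlapped. Signals of 1423423_at were 2928, 953 and 1977 for Ly6G+ DC and 3029, 483 and 548 for Ly6G- DC. The 3 arrays of the high side were the lowest, in both groups. Its log2 fold change between groups was 0.91 ± 0.66, and 0.27 ± 0.31 with the side as a block (SE), with -0.33 within the low and 0.87 within the high side. With Ly6G- DC 2 left out it was 0.45, the lowest value with 1 array left out, and with Ly6G- DC 1 left out it was 1.75, the highest, at an adjusted p of 0.141 by limma. The dimmer probe set, 1445330_at, with signals of 47.5, 59.8 and 66.1 for Ly6G+ DC and 45.0, 126 and 145 for Ly6G- DC, had a log2 fold change of -0.61 ± 0.49 (SE).

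Xbp1 was the member whose probe sets all had negative log2 fold changes, in every scaling that was run. Whether these probe sets tell spliced from unspliced Xbp1 mRNA was not tested. Signals of 1420886_a_at were 9567, 7252 and 6748 for Ly6G+ DC and 10139, 9309 and 11157 for Ly6G- DC. Only Ly6G+ DC 1 and Ly6G- DC 2 crossed over, and they lie on different sides. This probe set had -0.39 ± 0.32, and -0.41 ± 0.23 with the side as a block (SE, limma, adjusted p = 0.859 and 0.800). Signals of the brightest, 1437223_s_at, were 8447, 13611 and 7993 for Ly6G+ DC and 9541, 19717 and 19965 for Ly6G- DC, with -0.68 ± 0.42 (SE). The remaining probe sets, 1420011_s_at and 1420012_at, had -0.56 ± 0.43 and -0.74 ± 0.42 (SE). With the side as a block they had -0.238 ± 0.275 and -0.404 ± 0.291, and 1437223_s_at had -0.379 ± 0.212 (SE). Each of these was higher on every high-side array than on any low-side array, unlike 1420886_a_at. Within the low side 1420011_s_at had 0.12 and the other 3 were negative, and within the high side all 4 were negative. Plasma cells are rich in Xbp1, and the summed signal of 7 B cell and plasma cell markers was 3263 to 7790 in Ly6G+ DC and 3252 to 9832 in Ly6G- DC, in cells gated on CD11c and MHC class II. Sdc1, by an _x_at probe set, made up most of each sum with 2693 to 8947, and the other 6 markers, Cd79a, Cd79b, Ms4a1, Pax5, Jchain and Mzb1, lay at 6.99 to 302. All 7 had negative log2 fold changes, against 55.7% of all genes. Their median was -0.25, and -0.05 with the side as a block. Groups did not overlap for 1 of the 7, Ms4a1, at 72.9 to 82.7 in Ly6G+ DC and 105 to 176 in Ly6G- DC, against 7.86% of all genes.

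**Figure D1:**
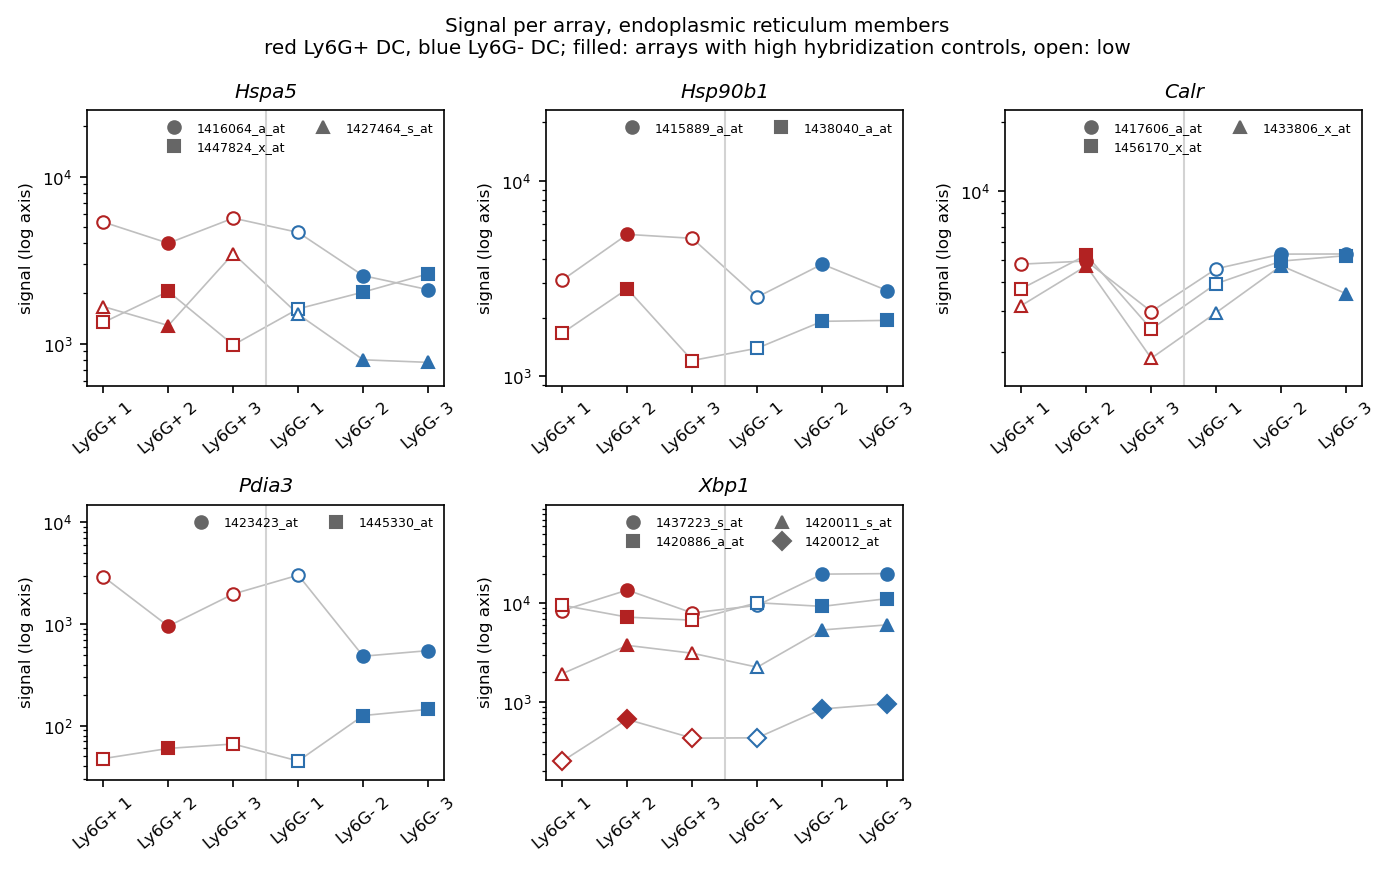
Signal of each probe set of the ER members and Xbp1 on every array, on a log axis; each line joins 1 probe set over the 6 arrays (red Ly6G+ DC, blue Ly6G- DC), with filled symbols for the high and open symbols for the low side of the hybridization controls. Pdia3 1423423_at lies at 483 to 953 on the filled arrays and at 1977 to 3029 on the open ones, while the Calr probe sets share their lowest point at Ly6G+ DC 3.

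Among the cytosolic members, Hspa8 was the brightest and its probe sets disagreed. Signals of 1455789_x_at were 10452, 31353 and 13723 for Ly6G+ DC and 11563, 38167 and 45703 for Ly6G- DC, with a log2 fold change of -0.72 ± 0.60 that was -0.18 ± 0.23 with the side as a block (SE). The lowest array of the high side was at 31353 and the highest of the low side at 13723. Signals of 1420623_x_at were 10049, 11298 and 10126 for Ly6G+ DC and 11742, 6406 and 8147 for Ly6G- DC, with 0.30 ± 0.35, and 1420622_a_at had 0.08 ± 0.38 (SE). The dimmest, 1431182_at, had 166, 106 and 241 for Ly6G+ DC and 123, 69.8 and 69.0 for Ly6G- DC, and a log2 fold change of 0.83 ± 0.42 (SE).

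Hsp90aa1, the stress-inducible cytosolic Hsp90, had positive log2 fold changes in its 3 bright probe sets. Signals of 1438902_a_at were 2814, 5401 and 6247 for Ly6G+ DC and 2367, 3859 and 4478 for Ly6G- DC. Groups overlapped because Ly6G+ DC 1 lay under Ly6G- DC 2 and 3, and within each side the Ly6G+ arrays were the higher ones. Its log2 fold change was 0.40 ± 0.40, and 0.60 ± 0.31 with the side as a block (SE, limma, adjusted p = 0.872 and 0.791), with 0.82 within the low and 0.38 within the high side. For 1437497_a_at it was 0.15 ± 0.36 and for 1426645_at 0.27 ± 0.28, while the dim 1433251_at had -0.40 ± 0.50 (SE). Without Ly6G- DC 1, 1437497_a_at had -0.19.

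Dnajb1, which stimulates the ATPase of the Hspa chaperones, gave 2 probe sets of like brightness that ran against each other. Signals of 1416755_at were 586, 824 and 752 for Ly6G+ DC and 541, 984 and 786 for Ly6G- DC. Those of 1416756_at were 1030, 379 and 777 for Ly6G+ DC and 788, 341 and 392 for Ly6G- DC. The high side held the 3 highest values of the first and the 3 lowest of the second. Log2 fold changes between groups were -0.07 ± 0.32, which became 0.26 with scaling to a common median, and 0.49 ± 0.44 (SE).

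Hspa1b, the gene induced most directly by heat and protein damage, was dim. The probe set 1452318_a_at had signals of 87.0, 142 and 207 for Ly6G+ DC and 148, 135 and 254 for Ly6G- DC, at a median percentile of 65.0 among all probe sets, with a log2 fold change of -0.29 ± 0.41 (SE). The others, 1427127_x_at and 1427126_at, had 0.08 ± 0.38 and -0.26 ± 0.52 (SE), and scaling to a common median brought 1452318_a_at and 1427126_at to 0.01 and 0.00. No order of the groups appeared in the 3 probe sets. Hspa1b has a near-identical neighbour, Hspa1a, whose promoter window differed at 4 of 300 bases. Whether the probe sets tell their transcripts apart was not tested. The probe set of Hspa1a, with signals of 31.5 to 74.6, did not pass the filter.

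**Figure D2:**
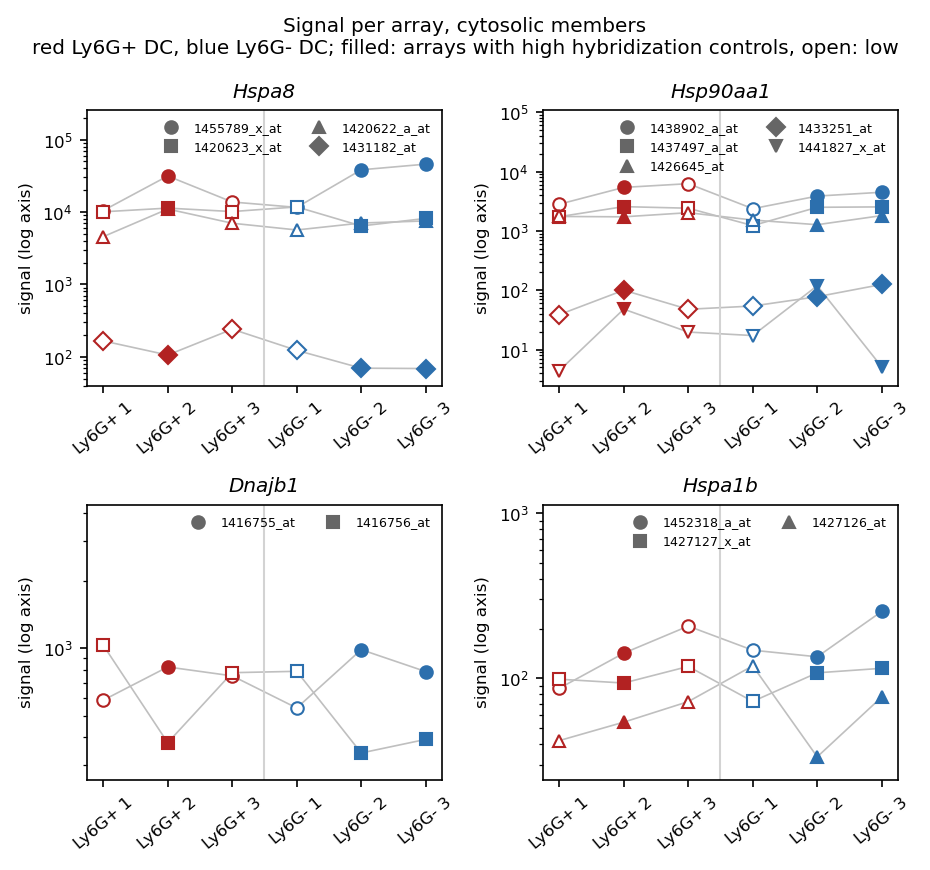
Signal of each probe set of the cytosolic members on every array, on a log axis; each line joins 1 probe set over the 6 arrays (red Ly6G+ DC, blue Ly6G- DC), with filled symbols for the high and open symbols for the low side of the hybridization controls. Dnajb1 1416755_at and 1416756_at cross, with 824, 984 and 786 against 379, 341 and 392 on the filled arrays.

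The side of the hybridization controls separated chaperone probe sets that the sort did not. In the limma fit with group and side together, the side passed at an adjusted p under 0.05 for 4 of 27 member probe sets. Hspa8 1455789_x_at was higher on the high side by 1.62 ± 0.23 on the log2 scale and Xbp1 1437223_s_at by 0.89 ± 0.21 (SE, limma, adjusted p = 0.0107 and 0.0407). Pdia3 1423423_at and Dnajb1 1416756_at were lower there, by -1.92 ± 0.31 and -1.14 ± 0.27 (SE, limma, adjusted p = 0.0129 and 0.0386). These were 2 of 27 in each direction, against 2.54% of all kept probe sets higher and 2.37% lower. At an unadjusted p under 0.05 these were 10 higher and 4 lower, against 12.3% and 9.2%. Sides did not overlap for 13 of 27 as higher and 5 as lower on the high side, against 17.3% and 11.5% of all. The side held 2 arrays of one group and 1 of the other, and the Actb ratio differed between sides, as given above.

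Probe sets of 1 gene lay apart between sides in opposite directions for 3 of the 9 members, Hspa8, Hspa5 and Dnajb1. Among the 5793 genes with over 1 kept probe set this was so for 9.53%. Hspa5 1416064_a_at and 1427464_s_at differed by -0.73 ± 0.23 and -0.91 ± 0.30 and 1447824_x_at by 0.67 ± 0.25 between sides (SE). The sign of the group log2 fold change also differed between probe sets of 1 gene, for 6 of the 9 members against 52.4% of those 5793 genes. Only Calr, Hsp90b1 and Xbp1 had 1 sign throughout with the deposited scaling. Members have between 2 and 4 kept probe sets, and a gene with more probe sets can split more easily.

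With the side as a block, limma called 0 of the 27 member probe sets between groups, with a smallest adjusted p of 0.747, where 0% of all were called. At an unadjusted p under 0.05, 2 were higher in Ly6G+ DC, Hspa5 1427464_s_at with 0.69 ± 0.30 and Hsp90b1 1415889_a_at with 0.68 ± 0.26 (SE), and 0 were lower, against 3.4% and 3.22% of all. Every Ly6G+ array was higher than every Ly6G- array within both sides for 6 of 27, against 12.3% of all kept probe sets. These were Hspa5 1416064_a_at and 1427464_s_at, Hsp90b1 1415889_a_at, Hsp90aa1 1438902_a_at and 1437497_a_at, and Hspa8 1431182_at. Every Ly6G+ array was lower within both sides for 3 of 27, all of Xbp1 (1437223_s_at, 1420886_a_at and 1420012_at), against 15.4% of all. With the array name as a block instead, which in the labels is Mouse430_2_2 for the arrays numbered 1 and Mouse430_2 for the others, limma called 0 member probe sets and 0.0743% of all. A side compares 1 array with 2, so these within-side orders carry no test.

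**Figure D3:**
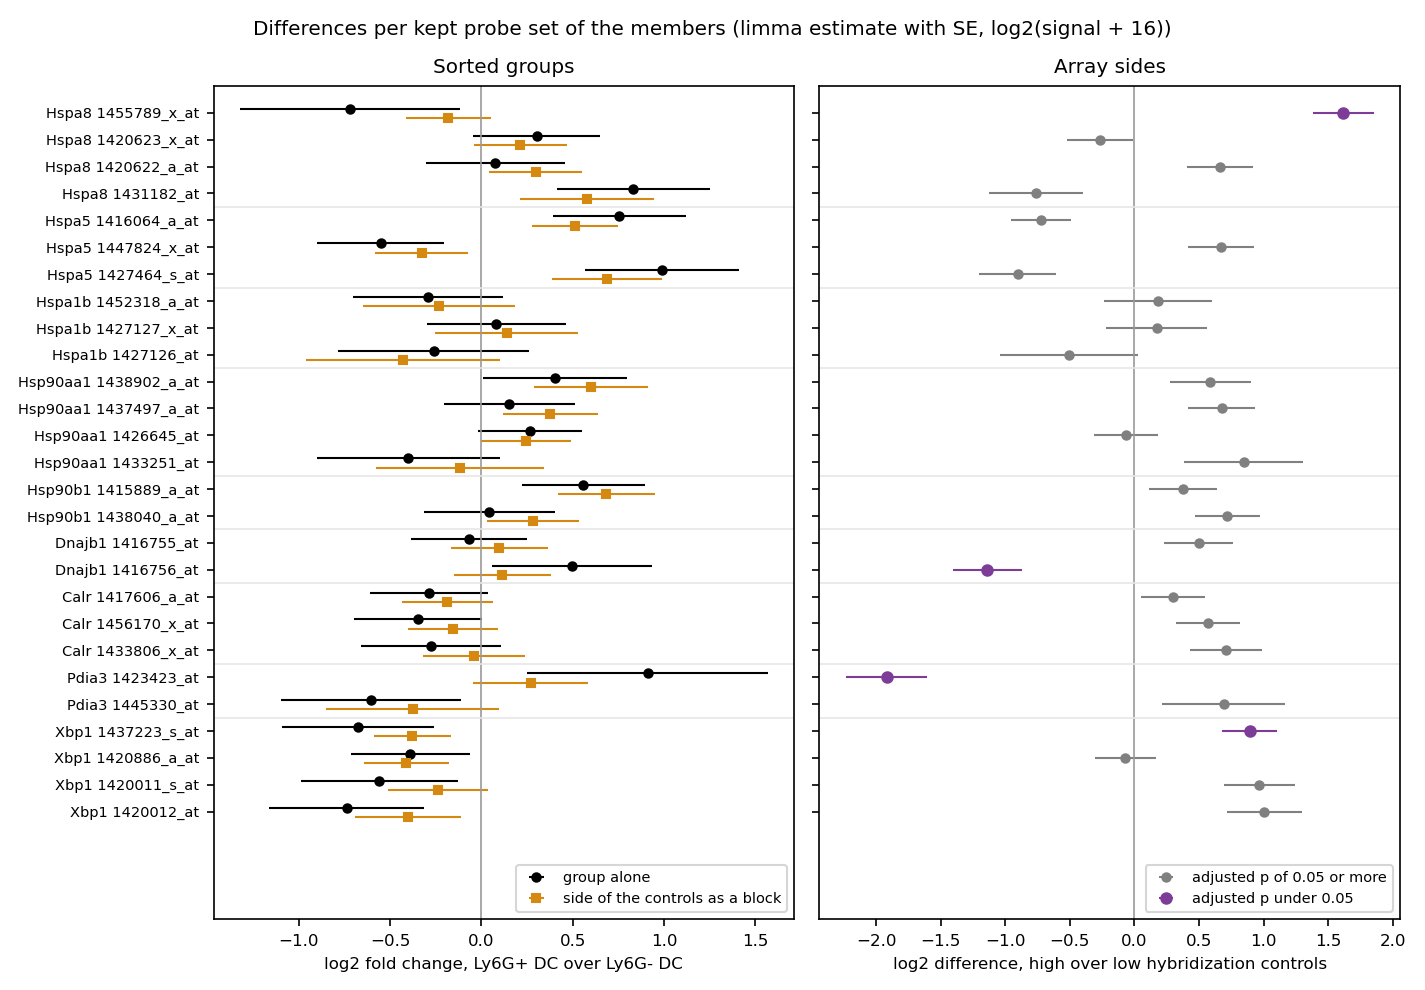
Estimates per kept member probe set from limma on the log2(signal + 16) scale, with SE bars; the left panel gives the log2 fold change of Ly6G+ DC over Ly6G- DC with the group alone (circles) and with the side as a block (squares), and the right panel gives the difference of the high over the low side of the hybridization controls. The 4 coloured points on the right passed an adjusted p under 0.05 and 0 passed on the left. There Dnajb1 1416755_at turns from -0.067 with the group alone to 0.098 with the side as a block. In settings not drawn, Hsp90b1 1438040_a_at turns sign with quantile normalization. Calr 1417606_a_at and 1433806_x_at, Dnajb1 1416755_at and Hspa1b 1452318_a_at and 1427126_at do with scaling to a common median.

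The wider pathway was read from 5 lists, each gene by its brightest kept probe set, and 0 genes of any list passed limma's test at an adjusted p under 0.05. At an unadjusted p under 0.05 there were 0 higher and 2 lower, Hsf2 and Ppp1r15a, where 2.99% of all genes were higher and 3.19% lower. Of 13262 genes, 44.3% had positive log2 fold changes, with a median of -0.07. Groups did not overlap for 4.95% of them as higher and 7.86% as lower in Ly6G+ DC.

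Of 20 measured ER chaperones and folding enzymes, 12 had positive and 8 negative log2 fold changes, with a median of 0.15. Pdia4, a disulfide isomerase, was the 1 gene higher on every Ly6G+ array, with signals of 277, 233 and 512 against 194, 225 and 147 and a log2 fold change of 0.74 ± 0.37 (SE, limma, adjusted p = 0.836). Its other probe set, at 9.5 to 87.0, overlapped. Dnajc10, a disulfide reductase of ER-associated degradation, was the 1 gene lower on every Ly6G+ array, with 1408, 1287 and 1236 against 1814, 1582 and 1927 and -0.43 ± 0.27 (SE). A second probe set of Dnajc10 did not overlap either, with -0.58 ± 0.30, and the remaining one had -0.18 ± 0.43 (SE). The brightest of the list, P4hb, the classical disulfide isomerase, and Ppib, an ER prolyl isomerase, had -0.03 ± 0.32 and -0.52 ± 0.52 (SE), and a second probe set of Ppib had 0.19 ± 0.36 (SE). With the side as a block the brightest probe set of Ppib had -0.09 ± 0.29 (SE). Within both sides every Ly6G+ array was higher for 8 of the 20 genes and lower for 2, against 13.0% and 16.6% of all genes. The 8 were Hspa5, Hsp90b1, Pdia4, Dnajb9, Dnajb11, Dnajc3, Creld2 and Serp1, and the 2 were Txndc5 and Dnajc10. These orders compare 1 array with 2 on each side, by 1 probe set per gene, and carry no test. Of the 4 members in the list, described above, Hspa5 and Hsp90b1 are among the 8, and Calr and Pdia3 are in neither count.

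The ER stress response element was found in the promoter windows of 7 of the 17 list genes that had one (41.2%). Beside Hspa5, Hsp90b1 and Calr these were Canx, the membrane-bound relative of Calr, Pdia6, Dnajc3 and Creld2. Log2 fold changes were -0.09 ± 0.36 for Canx, 0.61 ± 0.43 for Pdia6, 0.08 ± 0.38 for Dnajc3 and 0.44 ± 0.31 for Creld2 (SE). Together, 5 of the 7 had positive and 2 negative values by the brightest probe set, where 12 of the 20 list genes and 44.3% of all genes were positive. Hspa5, Canx, Pdia6 and Dnajc3 each had another kept probe set of the opposite sign. The list of sensors, factors and degradation genes held the element in 2 of 22, Syvn1 and Derl3, which had -0.01 ± 0.30 and -0.48 ± 0.43 (SE), and the other 3 lists held 0.

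Of 25 measured sensors, factors and degradation genes of the unfolded protein response, 13 had positive and 12 negative log2 fold changes, with a median of 0.01. Ppp1r15a (GADD34), which restores translation after stress and was singled out after its values were seen, had signals of 1699, 1024 and 743 for Ly6G+ DC and 2162, 1572 and 2434 for Ly6G- DC. Ly6G+ DC 1 lay above Ly6G- DC 2, and the log2 fold change was -0.88 ± 0.36 (SE, limma, unadjusted p = 0.0333, adjusted p = 0.836). Groups did not overlap for 0 of the 25 genes in either direction. Derl1, an ER channel of degradation and the brightest after Xbp1, had -0.13 ± 0.48 (SE), and its other 3 kept probe sets had 0.19, 0.05 and 0.49. Within both sides every Ly6G+ array was higher for 0 genes and lower for 3 of the 25, against 13.0% and 16.6% of all genes. The 3 were Xbp1, Ppp1r15a and the sensor gene Ern1 with -0.50 ± 0.35 (SE).

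Of 25 measured cytosolic heat shock proteins and cochaperones, 15 had positive and 10 negative log2 fold changes, with a median of 0.05. Hsf2, a heat shock transcription factor, was lower on every Ly6G+ array, with signals of 112, 129 and 77.5 against 149, 235 and 325. Its log2 fold change was -1.01 ± 0.39 (SE, limma, unadjusted p = 0.0258, adjusted p = 0.836), while its other probe set overlapped, with -0.15 ± 0.45 (SE). Hspa8 and Hsp90aa1 were the brightest genes of this list. Within both sides every Ly6G+ array was higher for 5 of the 25 genes, Hsp90aa1 among them, and lower for 3, against 13.0% and 16.6% of all genes. The longer heat shock element was found in 3 of the 23 promoter windows of this list (13%), those of Dnajb6, Hsph1 and Chordc1, and in 2 of 8 of the mitochondrial list (25%), those of Hspd1 and Hspe1.

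Of 13 genes of the chaperonin TRiC and of prefoldin, which fold actin and tubulin, 7 had positive values, with a median of 0.13. Pfdn1, a prefoldin subunit, was higher on every Ly6G+ array, with 413, 505 and 731 against 407, 342 and 359 and 0.52 ± 0.31 (SE). The brightest, Cct4 and Pfdn5, had -0.43 ± 0.49 and 0.13 ± 0.35, and the probe set of Cct4 lay at 10321 to 13237 on the high and at 4314 to 7520 on the low side. The probe sets of Cct4 disagreed, since a bright one at 4138 to 5053 had a log2 fold change of 0.02 ± 0.29 and a side difference of 0.19 ± 0.21, while a dim one at 105 to 343 had 0.45 ± 0.44 and a side difference of -0.81 ± 0.37 (SE). Of 11 mitochondrial chaperones and proteases 8 had positive values, with a median of 0.10, and groups did not overlap for 0. Hspe1, the mitochondrial cochaperonin, and Htra2, a mitochondrial protease, had 0.10 ± 0.38 and -0.78 ± 0.50 (SE). With the side as a block Htra2 had -0.34 ± 0.29 (SE). The other kept probe sets of Hspe1 and Htra2 had 0.47 ± 0.56 and -0.18 ± 0.35 (SE). With arrays scaled to a common median, the medians of the 5 lists lay at 0.32 to 0.48, against 0.23 over all kept probe sets. These are unlike sets, since the lists take the brightest probe set of each gene, and a median over all genes was not run with this scaling. With the deposited scaling, kept probe sets above the 90th percentile had a median of 0.015, against -0.063 over all kept probe sets.

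**Figure D4:**
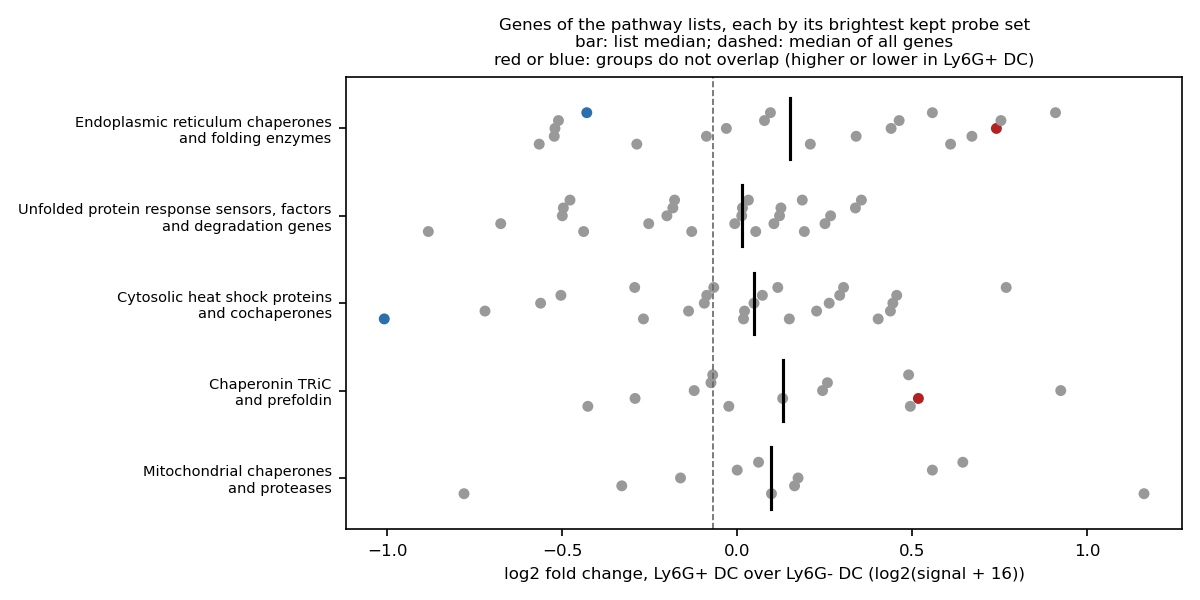
Log2 fold changes of Ly6G+ DC over Ly6G- DC on the log2(signal + 16) scale for the genes of the 5 pathway lists, 1 point per gene by its brightest kept probe set, with list medians as bars and the median of all genes, -0.07, as a dashed line. Points in red (Pdia4 and Pfdn1) or blue (Dnajc10 and Hsf2) are the 4 genes whose groups did not overlap. With scaling to a common median, which is not drawn, all 5 bars shift to 0.32 or above. The median of all kept probe sets, which are not limited to the brightest of each gene, shifts to 0.23.

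Patterns like those of the members were sought among 13253 other genes over the 6 arrays. The mean of the 4 measured cytosolic members, each by its brightest probe set and centred, was -0.64, 0.27 and 0.12 on Ly6G+ DC 1, 2 and 3 and -0.52, 0.27 and 0.51 on Ly6G- DC 1, 2 and 3. It was lowest on both arrays numbered 1, and the genes closest to it were Bloc1s4, Fgfbp1 and Nop56, with Pearson's r of 0.999, 0.999 and 0.997. The mean of the 5 ER members was 0.20, 0.09 and 0.09 for Ly6G+ DC and 0.13, -0.20 and -0.31 for Ly6G- DC. It was lowest on Ly6G- DC 2 and 3, where the members did not run together. Pdia3 (483 and 548) and Hspa5 (2556 and 2107) were at their lowest there. Xbp1 (19717 and 19965) and Calr (5312 and 5320) were at their highest. The genes closest to this mean were Txndc16, Gm32633 and Tsacc, with 0.999, 0.998 and 0.997. These are descriptions over 6 arrays that share a side or an array name, picked as the best of many genes.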

How the data were processed

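The deposited table gives 1 linear intensity per probe set and array. From its values, the authors had scaled each array to a mean of 250.0 with 2% trimmed at both ends. Affymetrix Expression Console 2.0, MAS5 and GCOS are named per the submitters' processing notes, and their settings are not given in the sources used here. Dim probe sets are noisy under MAS5, and a shared mean can be pulled by a few bright probe sets.

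Values were analysed as log2(signal + 16), which understates fold changes of dim genes. Of 45101 probe sets, 64 controls were left out and 28254 passed the filter. Fits of the group alone used lmFit and eBayes with an intensity trend (limma 3.58.1, R 4.3.3), with Benjamini-Hochberg adjustment over all kept probe sets at a threshold of 0.05, after the code had been tested on simulated data. SE come from limma, SD are over 3 arrays, and the number of arrays limits precision. The side split lies at the largest gap between arrays in the mean log2 signal of 18 hybridization control probe sets, and what separates the sides was not tested.

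Named were every member probe set, and per list the genes past the threshold or else up to 3 per direction whose groups did not overlap, with its 2 brightest genes. The members, lists and side split were chosen with earlier results of these data known. Alternatives were pseudocounts of 1 and 64, quantile and common median scaling, other low-signal filters or none, other variance models, blocks, gene-level values, and leaving out each array (for the 3' to 5' ratios, chosen after seeing the data).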

Additional observations from a re-analysis of the deposited data

How the results depend on the processing

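No member probe set passed limma's threshold in any alternative that was run, with smallest adjusted p-values from 0.141 (without Ly6G- DC 1) to 1. Of 338 member values under alternatives other than leaving out an array, 10 turned sign. With arrays scaled to a common median, Calr 1417606_a_at had 0.043, Calr 1433806_x_at 0.053, Dnajb1 1416755_at 0.258, Hspa1b 1427126_at 0.002 and Hspa1b 1452318_a_at 0.012. Quantile normalization gave -0.01 for Hsp90b1 1438040_a_at, the side block 0.098 for Dnajb1 1416755_at, the side and array name blocks together 0.156 for Calr 1433806_x_at, and means over a gene's probe sets 0.214 for Dnajb1 and 0.122 for Hspa8. Each construction rescales arrays, adds a term or averages probe sets, and the cause was not tested further. Of 159 member values without 1 array, 10 turned sign: ranges were -0.593 to 0.071 for Calr 1433806_x_at, -0.296 to 0.127 for Dnajb1 1416755_at, -0.19 to 0.328 for Hsp90aa1 1437497_a_at, -0.282 to 0.321 for Hsp90b1 1438040_a_at, -0.094 to 0.189 for Hspa1b 1427127_x_at and -0.243 to 0.39 for Hspa8 1420622_a_at.

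The members' median log2 fold change was 0.258 with common median scaling, 0.122 by gene means, and -0.253 to 0.099 without 1 array. With common median scaling the list medians were 0.479 for ER chaperones, 0.324 for sensors, factors and degradation genes, 0.367 for cytosolic heat shock proteins, 0.461 for TRiC and prefoldin and 0.427 for mitochondrial chaperones. Without 1 array they ranged over 0.147 to 0.348 for ER chaperones and -0.051 to 0.227 for TRiC and prefoldin. Over all kept probe sets limma called 0 with the group alone, 19 with the replicate block, 21 with the array name block, 2 by gene means, and 0 to 1 without 1 array (1 without Ly6G- DC 2). The labels do not say that same-numbered samples share a culture, so the numbers were not taken as pairs. Same-numbered samples correlated at 0.52, 0.263 and -0.043 in their deviations from group means. The samples numbered 3 lie on different sides of the hybridization controls, so these correlations cannot decide on pairing. With the replicate block 0 members were called, at a smallest adjusted p of 0.402 by limma. For the Actb and Gapdh ratios, differences without 1 array ranged over -1.804 to -0.528 and -1.594 to -0.54. Dim probe sets, such as those of Hspa1b, are limited by signal over background.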
